A study of Mus musculus with 7 samples.

Results

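The insulin-like growth factor (IGF) family was examined in the optic nerve at postnatal day 14 (P14), as 10 of the 22880 genes in the expression table: the ligands Igf1 and Igf2, the receptors Igf1r and Igf2r, and the binding proteins Igfbp2, Igfbp3, Igfbp4, Igfbp5, Igfbp6 and Igfbp7. The members were taken by gene symbol and not by a cut on their values, but the list was chosen with earlier results of these data known. All 10 passed the filter on low values that left 13866 genes for testing. Poly(A) RNA was sequenced from 4 control mice, with the genotype FASN lox/lox, and 3 mutant mice, with the genotype olig2cre FASN lox/lox, all on a C57Bl/6 background and all P14. By these labels the floxed allele of Fasn, which encodes the fatty acid synthase, was carried by both groups. The labelled difference was the Cre recombinase under Olig2, which is active in the oligodendrocyte (OL) lineage. The paper gives its developmental controls as either lox/lox or lox/wt, and it used both sexes. Both nerves of 1 mouse made 1 sample. The study asked how the tissue's transcripts differ when OLs cannot make fatty acids themselves.

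IGF1 and IGF2 are secreted peptides that act through the IGF1 receptor, a tyrosine kinase whose signal passes through insulin receptor substrates to PI3K, AKT and mTOR. The IGF2 receptor, also known as the cation-independent mannose 6-phosphate receptor, takes up IGF2 for degradation in lysosomes. The binding proteins hold IGFs outside the cell and either block or prolong their action until proteases cut them. IGF1 is known to promote survival and myelination by OLs. The gene of IGF2 is imprinted in many but not all tissues, and its transcript is abundant in the meninges and the choroid plexus. The optic nerve is wrapped in meninges and also holds astrocytes, microglia and vessels, so each value below is a mean over all these cells, and in such bulk samples fewer cells of a type and less RNA per cell cannot be told apart.

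All 10 members had a higher mean in the mutants than in the controls, in the main comparison and in all 18 alternative settings, but none passed the test across all genes. This compares with 60.1% of all genes tested that had a higher mean in the mutants, and with 1.26% that were called higher (limma-trend, Benjamini-Hochberg adjusted p under 0.05; 2.62% were called in either direction). The differences were largest for Igfbp5, Igfbp4 and Igfbp6, whose mutant means were 2.06-, 1.89- and 1.89-fold the control means, and smallest for Igf2r, at 1.19-fold. Mutant 1 had the highest value of all 7 samples in 9 of the 10 members, as it had in 32.7% of all genes tested. The median log2 fold change of the members was 0.51 with all mice, against 0.05 over all genes tested, and 0.29 against 0.03 without mutant 1. Without control 2 these medians were 0.48 and 0.04.

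The promoters of 3 binding protein genes are shown first: Igfbp4 and Igfbp5, which had the highest coefficients of variation of the members among the mutants, and Igfbp2, the neighbour of Igfbp5 and the most abundant binding protein. Igfbp2 and Igfbp5 lie tail to tail on chromosome 1, with 5457 bases between the ends of the annotated genes. Each sequence is the 250 bases before a RefSeq transcript start in GRCm38.p6, 5′ to 3′ on the gene's own strand. Capitals mark TATAAA, a form of the TATA box, and GGGCGG, the core of a GC box.
Igfbp4, chr11:99040994-99041243, plus strand: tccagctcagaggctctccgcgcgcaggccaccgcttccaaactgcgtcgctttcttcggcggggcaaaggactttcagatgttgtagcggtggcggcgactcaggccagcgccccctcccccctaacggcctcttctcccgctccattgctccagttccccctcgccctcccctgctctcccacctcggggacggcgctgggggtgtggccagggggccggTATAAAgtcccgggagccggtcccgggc
Igfbp5, chr1:72874866-72875115, minus strand: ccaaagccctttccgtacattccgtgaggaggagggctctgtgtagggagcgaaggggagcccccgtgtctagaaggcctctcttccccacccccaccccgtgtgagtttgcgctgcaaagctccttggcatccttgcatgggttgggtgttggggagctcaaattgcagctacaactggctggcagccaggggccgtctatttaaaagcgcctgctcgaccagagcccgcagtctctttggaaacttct
Igfbp2, chr1:72824230-72824479, plus strand: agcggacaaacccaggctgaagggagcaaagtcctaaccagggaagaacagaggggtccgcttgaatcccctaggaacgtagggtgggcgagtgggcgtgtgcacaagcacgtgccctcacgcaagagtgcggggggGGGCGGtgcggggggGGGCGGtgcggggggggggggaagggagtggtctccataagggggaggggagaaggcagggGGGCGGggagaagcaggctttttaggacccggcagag
TATAAA, searched on both strands, was found 28 bases before the Igfbp4 start. No match of either motif stood in the Igfbp5 window. The Igfbp2 window shown held GGGCGG 3 times. Another Igfbp2 start, with the window chr1:72825137-72825386, had no match of either motif. Over all 32841 RefSeq promoter windows of the same length, 12.4% held TATAAA and 32.7% held GGGCGG, and matches of the 2 motifs cannot overlap each other. All 10 members were matched, with 14 starts in all, of which 2 (Igfbp4 and Igfbp6) held TATAAA and 6 (Igf2, Igf1r, Igf2r, Igfbp2 and Igfbp7) held GGGCGG. The GC content of the members' windows ran from 47.6% to 77.6%, and 11 of 14 were above the median of all windows, 52.4%. A match is a description of letters and no measure of binding.

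Values are given as FPKM (fragments per kilobase of transcript, scaled to the library size). They are per length, so that a comparison between genes rests on the length used for each. Recovered read totals were 31314688 to 43462286 in the controls and 27453952 to 35746238 in the mutants. The targeted gene followed the labels: Fasn was at 169.1 to 228.3 FPKM in the controls and at 48.98 to 69.3 FPKM in the mutants (log2 fold change −1.86, limma-trend adjusted p = 0.00312). Over all genes, 363 were called, 175 higher and 188 lower in the mutants. The split depended on the scaling, being 141 higher and 281 lower after quantile normalization, 117 and 283 after centring each sample on its median, and 103 and 267 on the authors' normalized counts. With 4 mice against 3, the smallest two-sided p of an exact permutation test is 0.0571.

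Some libraries stood apart in markers of other cells. The summed level of 7 meningeal fibroblast markers (Col1a1, Col1a2, Col3a1, Dcn, Lum, Ogn and Slc6a13) was 1345, 739.4, 978.1 and 1082 FPKM in controls 1 to 4, and 2283, 1238 and 1295 FPKM in mutants 1 to 3. All 7 markers were highest in mutant 1 and lowest in control 2, and all 7 had higher means in the mutants, although none was called. Control 2 also held blood cell transcripts at 12730 FPKM against 2851 to 5595 FPKM in the other 6 samples, and mutant 2 held skeletal muscle transcripts at 65.53 FPKM against 2.368 to 5.008 FPKM. The astrocyte markers were at 2903 to 3338 FPKM in controls and 3752 to 4606 FPKM in mutants, with all 7 higher and 4 of them called. The 5 mature OL markers, which define the tissue's main glial lineage, were high throughout, at 26460 to 28120 FPKM in controls and 19650, 26450 and 20860 FPKM in mutants 1 to 3, with none called. Endothelial markers ran from 113.2 to 135.7 FPKM in controls and from 147.0 to 164.6 FPKM in mutants, also with none called. All 7 microglia and all 7 mural cell markers had higher means in the mutants, and 4 of the 6 neuron markers did, with none called. Only 1 of 4 retina and 2 of 6 skeletal muscle markers passed the filter, and none of these was called. For the precursors of OLs, 2 of the 5 OPC markers (oligodendrocyte precursor cells) were called lower, their sum being 175.4 to 209.8 FPKM in controls and 150.6 to 181.3 FPKM in mutants.

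**Figure D1:**
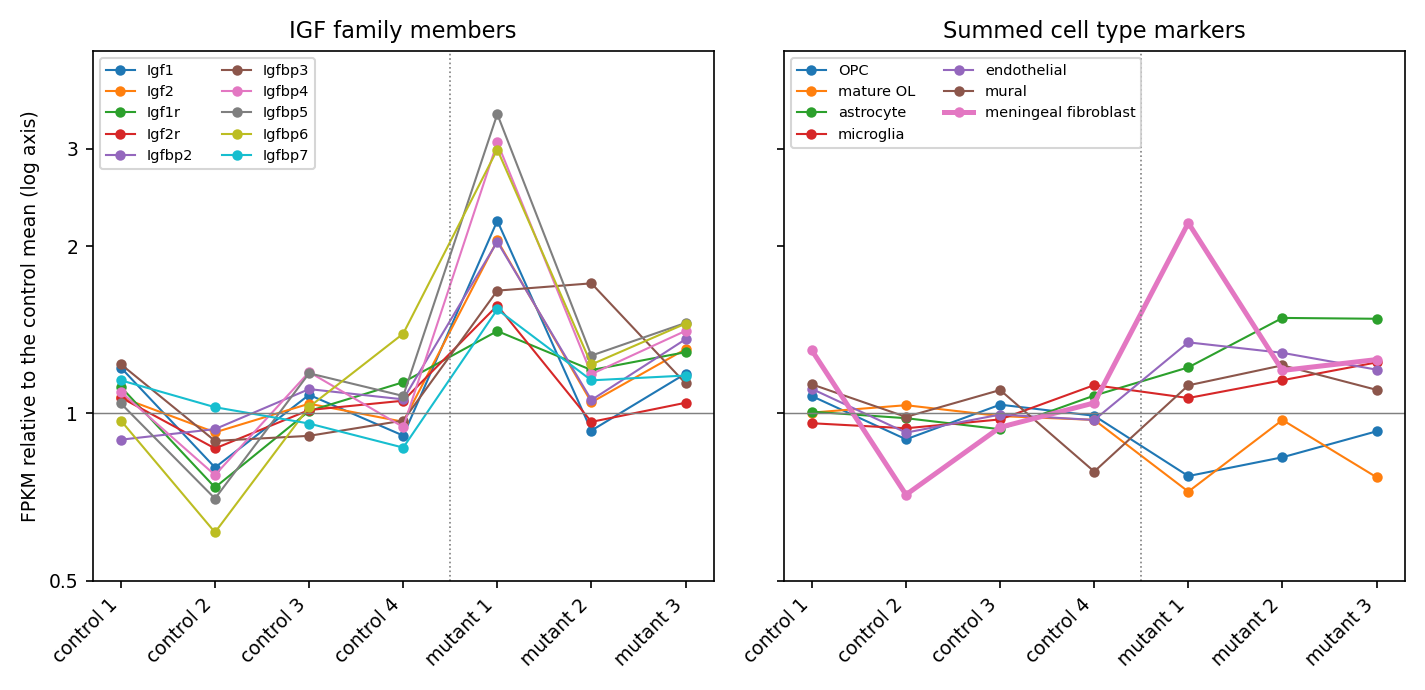
Level of each sample relative to the control mean (log axis) for the 10 IGF family members (left) and for the summed markers of 7 cell types (right), in controls 1 to 4 and mutants 1 to 3; each point is 1 mouse and lines only join the points of 1 gene or list. Mutant 1 is the highest sample in 9 members and control 2 the lowest in 8, and the meningeal fibroblast sum, the thick line, is at 2.20 times the control mean in mutant 1 and 0.714 times in control 2.

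The members' levels in the controls followed the order Igf2, Igfbp2, Igfbp5, Igfbp7, Igfbp4, Igfbp6, Igfbp3, Igf1, Igf2r and Igf1r, from 1302 ± 86.7 to 5.44 ± 1.01 FPKM (mean ± SD, n = 4). Igf2 ranked 34th by control mean among the 13866 genes tested, and Igfbp2 ranked 323rd. The other 6 binding protein and ligand genes ranked between 1449 (Igfbp5) and 3577 (Igf1), Igf2r ranked 4059 and Igf1r ranked 9065. Igf2 and Igfbp2, Igfbp2 and Igfbp5, and Igf2r and Igf1r were the neighbours in this order whose control ranges were apart. All other neighbours overlapped in their ranges, although Igfbp3 was above Igf1, and Igf1 above Igf2r, within each of the 4 control mice. This order rests on the lengths behind the FPKM. These were 4489 bases for Igf1r and 2549 for Igf2r, against longest GENCODE transcripts of 11409 and 8887 bases. For Igf1, Igf2 and Igfbp4 they were 1963, 2130 and 1687 bases, against 7052, 4722 and 3831.

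**Figure D2:**
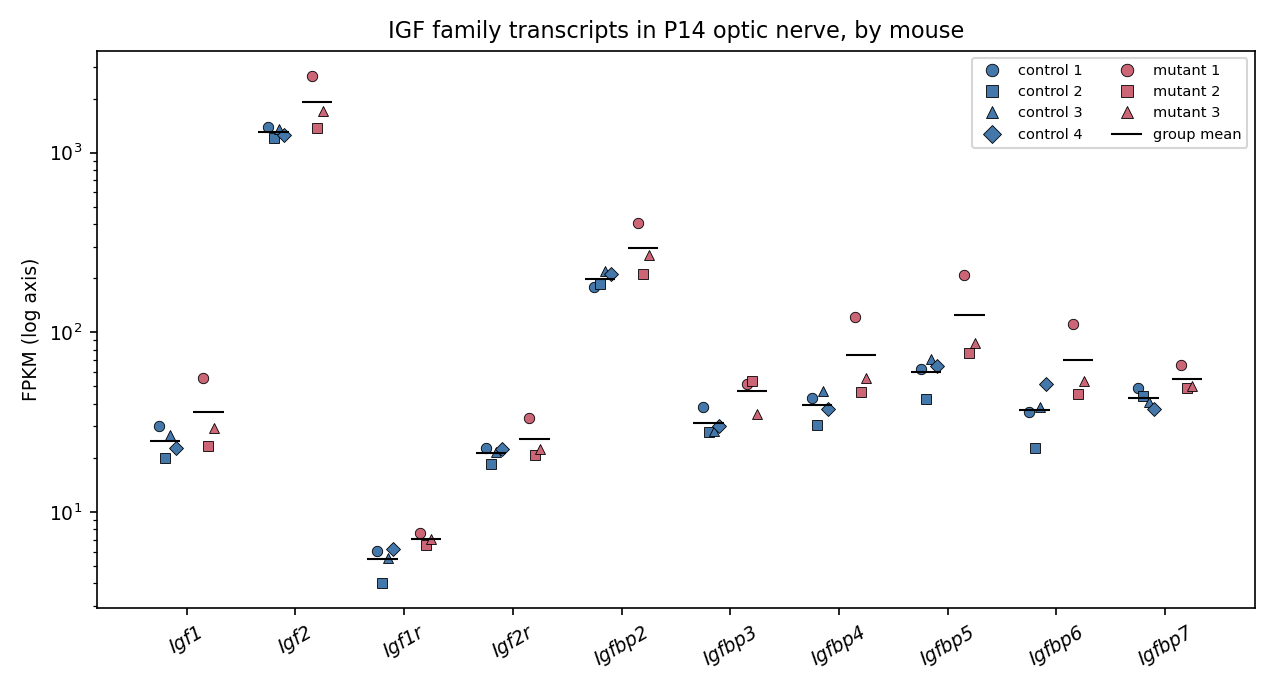
FPKM (log axis) of each IGF family member in every mouse, with blue points for the 4 controls, red points for the 3 mutants, a shape for each label number and a bar at the group mean. Igf2 lies between 1204 and 2669 FPKM and Igf1r between 4.005 and 7.658 FPKM, and the circle of mutant 1 stands above the other mutants in 9 of the 10 genes.

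Igf2, the fetal growth ligand (chr7:142650766-142666816, minus strand, GRCm38), was at 1392, 1204, 1356 and 1258 FPKM in controls 1 to 4. In mutants 1 to 3 it was at 2669, 1364 and 1700 FPKM. Mutant 1 was thus at 2.05 times the control mean and mutant 3 at 1.31 times, while mutant 2 fell inside the control range. The log2 fold change was 0.50 ± 0.20 (SE; 95% interval 0.05 to 0.94; limma-trend adjusted p = 0.166). Igf2 had 83908 to 203220 recovered reads per sample, so that counting error was small beside the spread between mice. On recovered reads DESeq2 called it (adjusted p = 0.0392) and edgeR's quasi-likelihood test did not (adjusted p = 0.146). Without mutant 1 the log2 fold change was 0.23 (limma-trend adjusted p = 0.341), and without mutant 2, the mouse with muscle transcripts, it was 0.71 (limma-trend adjusted p = 0.0479). Over all alternatives the adjusted p of Igf2 ran from 0.0392 to 0.341.

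Igf1, the ligand known for its action on OLs (chr10:87858265-87937042, plus strand), was at 30.07, 19.88, 26.88 and 22.69 FPKM in the controls and at 55.30, 23.17 and 29.33 FPKM in the mutants. Mutants 2 and 3 lay within the control range, and mutant 1 was at 2.22 times the control mean. Its log2 fold change of 0.44 ± 0.26 (SE; 95% interval −0.16 to 1.04; limma-trend adjusted p = 0.335) was 0.08 without mutant 1 (limma-trend adjusted p = 0.822). Igf1 and Igf2 both overlap antisense genes in GENCODE, Igf1os and Igf2os, and Igf2 also overlaps Gm49394 and Mir483 on its own strand. The library kit marks the strand, but whether the counting used it was not given in the sources used here.

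The receptors were the least abundant members. Igf1r, the signalling receptor (chr7:67952859-68226780, plus strand), was at 6.076, 4.005, 5.50 and 6.196 FPKM in controls 1 to 4 and at 7.658, 6.515 and 7.018 FPKM in mutants 1 to 3. Every mutant was above every control, a pattern found in 12.9% of all genes tested. The mutant spread was narrow, with an SD of 0.573 FPKM (n = 3), and the log2 fold change was 0.36 ± 0.14 (SE; 95% interval 0.04 to 0.69; limma-trend adjusted p = 0.167; exact permutation p = 0.0571, two-sided). Without mutant 1 it was 0.31 (limma-trend adjusted p = 0.356). Leaving out control 2, its lowest sample, made it smaller still, at 0.23 (limma-trend adjusted p = 0.263), the smallest value over all alternatives. Igf1r was the member for which mutant 1 stood least far out, at 1.41 times the control mean, against at most 1.29 times in mutants 2 and 3.

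Igf2r, the IGF2 clearance receptor (chr17:12682406-12769664, minus strand), was at 22.79, 18.45, 21.63 and 22.48 FPKM in the controls and at 33.38, 20.60 and 22.29 FPKM in the mutants. Only mutant 1 was outside the control range. On the log2 scale the difference was 0.22 ± 0.16 (SE; 95% interval −0.13 to 0.57; limma-trend adjusted p = 0.413), and without mutant 1 it was 0.01 (limma-trend adjusted p = 0.97). Airn, an imprinted antisense RNA, overlaps Igf2r on the other strand and was absent from the expression table.

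Among the binding proteins, Igfbp5, which binds IGFs and the extracellular matrix (chr1:72857932-72874884, minus strand), had the largest difference. It was at 62.64, 42.22, 70.96 and 64.62 FPKM in controls 1 to 4 and at 208.0, 76.38 and 87.45 FPKM in mutants 1 to 3. The groups did not overlap, but mutants 2 and 3 were only 1.27 and 1.45 times the control mean where mutant 1 was 3.46 times. The log2 fold change was 0.91 ± 0.32 (SE; 95% interval 0.19 to 1.64; limma-trend adjusted p = 0.135; exact permutation p = 0.0571, two-sided). Without mutant 1 it was 0.47 (limma-trend adjusted p = 0.231). Igfbp2, its neighbour and the most abundant binding protein (chr1:72824503-72852474, plus strand), was at 178.4, 186.4, 220.1 and 210.9 FPKM in the controls and at 405.4, 210.3 and 270.6 FPKM in the mutants. Mutant 2 lay inside the control range. The log2 fold change of Igfbp2 was 0.52 ± 0.19 (SE; limma-trend adjusted p = 0.144) with all mice, 0.27 without mutant 1 (limma-trend adjusted p = 0.288) and 0.74 without mutant 2 (limma-trend adjusted p = 0.0419). DESeq2 called Igfbp2 (adjusted p = 0.0342), and over all alternatives its adjusted p ran from 0.0342 to 0.288. The quasi-likelihood test of edgeR called none of the 10 members. Of all genes tested, 6.63% were called higher by DESeq2, 1.17% by edgeR and 4.06% by limma-trend without mutant 2.

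Igfbp4, an inhibitory binding protein (chr11:99041244-99054392, plus strand), was at 43.20, 30.60, 46.92 and 37.34 FPKM in the controls and at 121.6, 46.49 and 55.62 FPKM in the mutants. Igfbp6, which prefers IGF2 over IGF1 (chr15:102144362-102149511, plus strand), was at 36.00, 22.65, 38.09 and 51.64 FPKM in the controls and at 110.8, 45.45 and 53.81 FPKM in the mutants. In both genes mutant 1 stood far above the control mean, at 3.08 and 2.99 times, and mutant 2 lay inside the control range. The log2 fold changes were 0.79 ± 0.29 for Igfbp4 and 0.85 ± 0.33 for Igfbp6 (SE; limma-trend adjusted p = 0.148 and 0.159). Without mutant 1 they were 0.38 and 0.47.

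Igfbp3, the main IGF carrier of the blood (chr11:7206086-7213923, minus strand), differed from the rest in which mouse was highest. It was at 38.15, 27.76, 28.35 and 30.20 FPKM in the controls and at 51.76, 53.36 and 35.25 FPKM in the mutants. Here mutant 2 was as high as mutant 1, and mutant 3 was inside the control range. This gave a log2 fold change of 0.57 ± 0.16 (SE; 95% interval 0.21 to 0.93; limma-trend adjusted p = 0.0862), the smallest adjusted p of the members, and DESeq2 called it (adjusted p = 0.0155). Without mutant 1 the log2 fold change of Igfbp3 was 0.48. Without mutant 2, its highest mouse and the one with muscle transcripts, it was 0.46 (limma-trend adjusted p = 0.127). The adjusted p of Igfbp3 ran from 0.0155 to 0.20 over all alternatives. Igfbp7, a distant relative with weak IGF binding that is known from vessel walls (chr5:77349240-77408045, minus strand), was at 49.12, 43.93, 41.05 and 37.15 FPKM in the controls and at 65.89, 49.09 and 50.08 FPKM in the mutants. Mutant 2 was just under control 1. The log2 fold change of Igfbp7 was 0.35 ± 0.12 (SE; limma-trend adjusted p = 0.133), and 0.22 without mutant 1. Igfbp7 overlaps Polr2b and Gm34648 on the other strand.

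**Figure D3:**
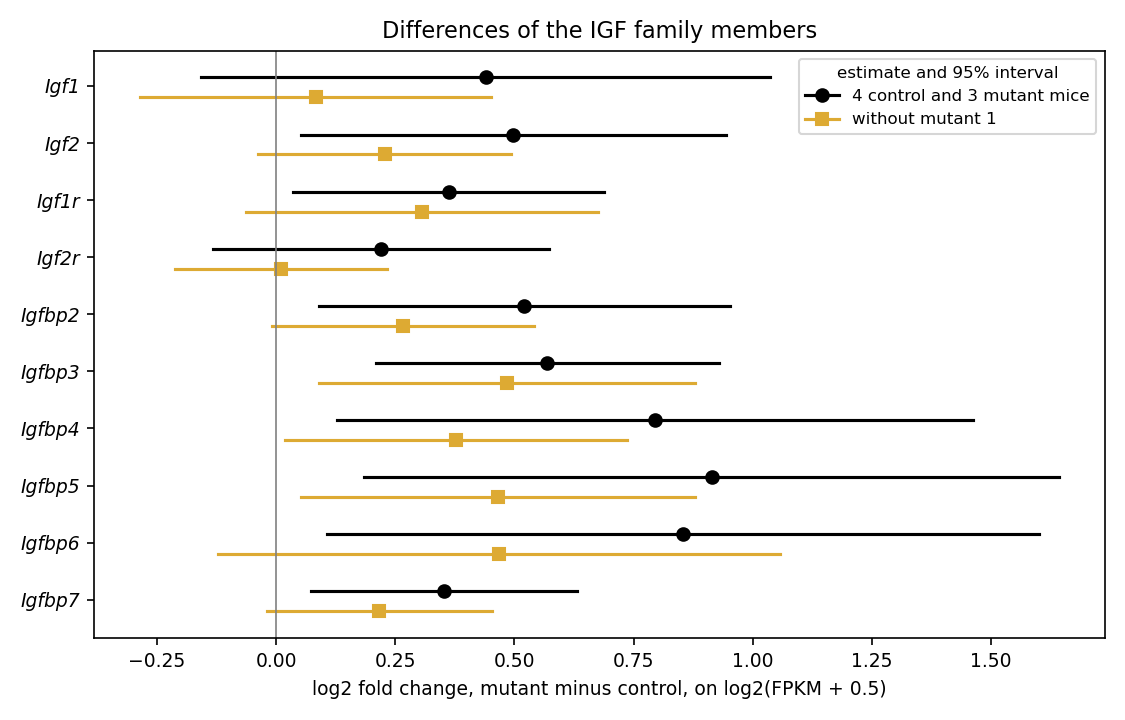
Log2 fold change of each IGF family member, mutant minus control, on log2(FPKM + 0.5), with its 95% interval from limma-trend, for all 7 mice (black circles) and without mutant 1 (yellow squares). All estimates are above 0, 8 of the 10 black intervals leave out 0, and every estimate is smaller without mutant 1.

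Without the adjustment over all genes, 8 members had p under 0.05, all but Igf1 and Igf2r, against 15.9% of all genes tested that were higher at that level. The exact two-sided permutation p of single members was 0.0571 for Igf1r and Igfbp5 and 0.114 to 0.514 for the other 8. All 10 means were still higher in the mutants without mutant 1, as were 55.5% of all genes tested. Mutant 1 was above 1.5 times the control mean in 9 members, all but Igf1r, as in 13.1% of all genes tested. Control 2 was the lowest of all samples in 8 members, all but Igfbp2 and Igfbp7, as in 26.7% of all genes tested. The spread was wider among the mutants in 9 members, all but Igf1r: the coefficient of variation was 6.66% to 32.0% over the members in the controls and 8.11% to 58.9% in the mutants.

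Deviations from the group means correlated at 0.168, 0.409 and 0.27 within label numbers 1, 2 and 3, and the numbers were treated as pairs. Mutant 1 correlated more with control 4 (0.205) than with control 1, so these values do not set pair 1 apart. The pairing was taken from these same data and from no label. Within the pairs all 10 members were higher in the mutant in all 3 pairs, as were 32.7% of all genes tested. With the replicate number as a block, 2 members were called, Igfbp6 (log2 fold change 1.03 ± 0.18, SE; limma-trend adjusted p = 0.0278) and Igfbp3 (0.56 ± 0.12, SE; limma-trend adjusted p = 0.0401), while 6.42% of all genes were called higher. Igfbp6 was 3.08-, 2.01- and 1.41-fold higher in pairs 1, 2 and 3, and Igfbp3 1.36-, 1.92- and 1.24-fold. Igfbp5 missed the threshold (limma-trend adjusted p = 0.0503), with folds of 3.32, 1.81 and 1.23. Over all alternatives the adjusted p of Igfbp6 ran from 0.0278 to 0.375 and that of Igfbp5 from 0.0503 to 0.272. Control 4 has no partner and does not inform the genotype term in that fit.

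The members followed the order of the meningeal fibroblast markers at its ends. Of the members 9 were highest in mutant 1 and 8 lowest in control 2, against 32.7% and 26.7% of all genes tested. Between the ends most did not: the marker sum was higher in control 1 (1345 FPKM) than in mutants 2 and 3 (1238 and 1295 FPKM). Only Igf1 and Igf2r were likewise higher in control 1 than in both of these mutants. In FPKM only Igf1r and Igfbp5 had their groups apart, so the other members had no separation to lose. Set against the summed markers of the same sample, a ratio chosen after the data were seen, no member had its groups apart. Of all genes tested 17.3% had them apart, in one direction or the other. Igf2 was then at 103.5% to 162.8% of the marker sum in the controls and at 110.2% to 131.3% in the mutants. Igfbp5 was at 4.66% to 7.26% and 6.17% to 9.11%, and Igfbp6 at 2.68% to 4.77% and 3.67% to 4.85%. Other members had the lower range in the mutants: Igf2r was at 1.695% to 2.495% in the controls and 1.46% to 1.72% in the mutants, Igf1 at 2.10% to 2.75% and 1.87% to 2.42%, and Igf1r at 0.452% to 0.573% and 0.335% to 0.542%. The part of the meninges in the members' values was not tested.

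The other genes of the pathway were taken from lists of 66 genes in all, of which 51 were tested. None was called by limma-trend, and the median log2 fold change was 0.08. Higher means in the mutants were found for 34 and lower means for 17, where 60.1% of all genes tested were higher. At an unadjusted limma-trend p under 0.05 there were 13 of the 51, in either direction, against 3387 of all 13866 genes tested. Of the other ligands, receptors and binding proteins only Insr, the insulin receptor, was tested (log2 fold change 0.09, limma-trend adjusted p = 0.623), and Ins1, Ins2, Insrr, Igfbp1, Igfbpl1 and Igfals were below the filter. All 5 tested proteases (Htra1, Adam12, Mmp2, Mmp14 and Ctsd) had higher means, and the inhibitors Stc1 and Stc2 were below the filter. The proteases were at a median log2 fold change of 0.24, or 0.07 without mutant 1. Htra1, a secreted serine protease that cuts IGFBPs, was at 48.84, 45.91, 67.41 and 55.08 FPKM in the controls and 108.1, 63.66 and 95.91 FPKM in the mutants (log2 fold change 0.69, limma-trend adjusted p = 0.0792; with the replicate block 0.70, adjusted p = 0.0309). Its groups overlapped in mutant 2. Mmp14, a membrane-bound matrix metalloproteinase, was at 47.97 to 71.05 FPKM in the controls and 127.7, 73.91 and 81.15 FPKM in the mutants (log2 fold change 0.55, limma-trend adjusted p = 0.136; with the block 0.62, adjusted p = 0.0254). The smallest difference was that of Ctsd, the lysosomal protease cathepsin D, at 0.08 on the log2 scale (limma-trend adjusted p = 0.588). Pappa and Pappa2, secreted metalloproteinases that cut IGFBPs, were below the filter.

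Of the 14 adaptors and feedback regulators 7 had higher and 7 lower means, with a median log2 fold change of 0.02. Grb10, an imprinted adaptor that inhibits insulin and IGF receptors, was highest in this list at 0.60, with 20.95, 16.46, 23.32 and 21.48 FPKM in the controls and 44.86, 23.38 and 28.66 FPKM in the mutants (limma-trend adjusted p = 0.126; with the block 0.62, adjusted p = 0.0464). Its relative Grb14 was lowest, at −0.23 (limma-trend adjusted p = 0.308). Of the 25 genes of PI3K, AKT and mTOR signalling 15 had higher and 10 lower means, with a median of 0.04. Foxo1, a transcription factor that AKT keeps out of the nucleus, was at 6.085 to 7.014 FPKM in the controls and 8.131 to 8.816 FPKM in the mutants (log2 fold change 0.32, limma-trend adjusted p = 0.0725). Akt2, an AKT kinase, was at 49.79 to 57.26 and 60.49 to 68.44 FPKM (0.28, limma-trend adjusted p = 0.0756; with the block 0.30, adjusted p = 0.0436). Pik3r3, a regulatory subunit of PI3K, was lower in every mutant, at 66.75 to 76.19 FPKM against 76.62 to 91.86 FPKM (−0.28, limma-trend adjusted p = 0.0884). Without mutant 1 the log2 fold changes of these 3 genes were 0.29, 0.25 and −0.23.

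Of the Igf2 mRNA-binding proteins and imprinted genes 6 were tested, and all had higher means, as did 60.1% of all genes tested. Their median log2 fold change was 0.31, or 0.15 without mutant 1. Igf2bp1 and Igf2bp3 were below the filter, and H19 and Airn were absent from the expression table. Plagl1, a zinc finger transcription factor of the imprinted gene network, was at 19.10, 12.03, 18.68 and 21.59 FPKM in the controls and 43.49, 18.91 and 25.68 FPKM in the mutants (0.65, limma-trend adjusted p = 0.187; with the block 0.75, adjusted p = 0.0285). Dlk1, a paternally expressed Notch ligand relative, was at 3.639, 2.357, 8.296 and 5.280 FPKM and at 7.909, 5.357 and 12.74 FPKM, so that mutant 3 and not mutant 1 was highest (0.81, limma-trend adjusted p = 0.229; with the block 0.88, adjusted p = 0.0235). Peg3, another paternally expressed gene, had a log2 fold change of 0.43 (limma-trend adjusted p = 0.166; with the block 0.51, adjusted p = 0.0269). Igf2bp2, which binds Igf2 mRNA, had the smallest difference, at 0.06 (limma-trend adjusted p = 0.82). With the replicate block 7 of the 51 genes were called, all of them higher in the mutants; over all 13866 genes that fit called 1159, of which 890 (76.8%) were higher.

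**Figure D4:**
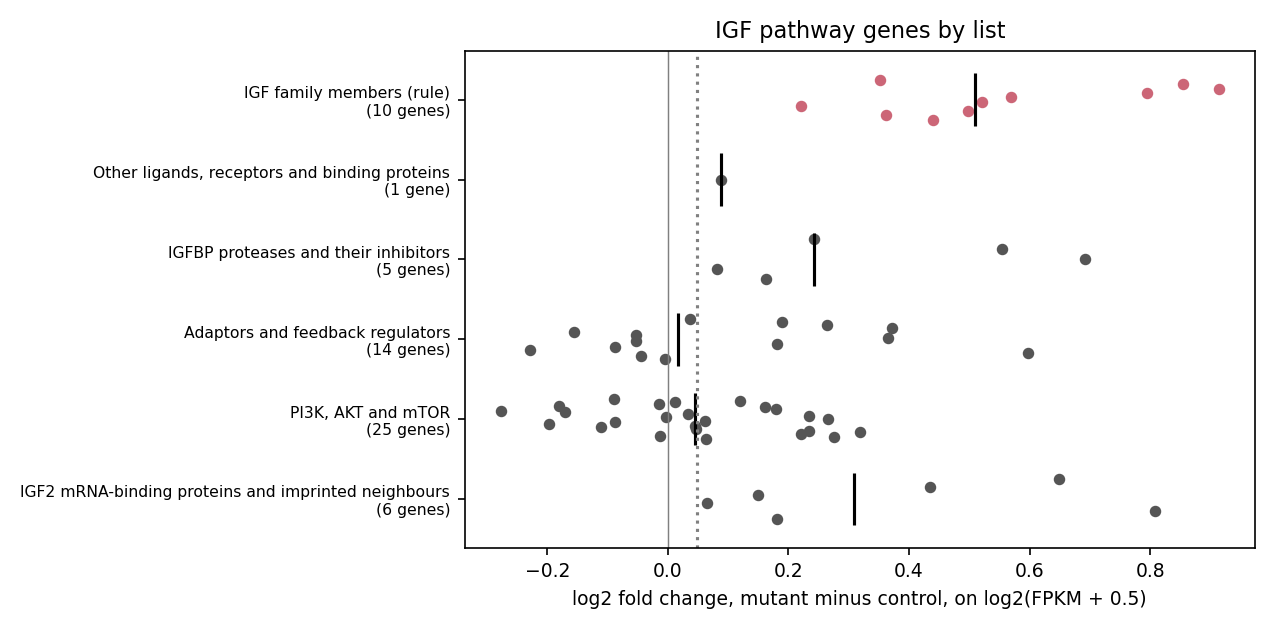
Log2 fold change, mutant minus control, on log2(FPKM + 0.5), of the IGF family members (red) and of the 5 lists of other pathway genes (grey), each point 1 tested gene, with a bar at each list's median and a dotted line at the median of all genes tested, 0.05. The members' median is 0.51, and the medians of the adaptors and of the PI3K, AKT and mTOR list are 0.02 and 0.04.

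The genes whose level over the 7 samples was most like that of Igf1, by Pearson's r of log2(FPKM + 0.5), were Unc13b (r = 0.996), Tmem175, Stk10, Fbn2 and Ascc1. Those most like Igf2 were Lix1l (r = 0.995), H6pd, Spon2, Npy1r and Ifi30. Leaving out mutant 1 and mutant 3, the samples farthest from the median of Igf2, r was 0.874 for Lix1l. Among the genes most like Igf2 it then ran from 0.76 for Ifi30 to 0.962 for H6pd. For Igf1 the farthest samples were control 2 and mutant 1, and without them r ran from 0.873 for Stk10 to 0.991 for Unc13b. All points share the same 7 libraries, and the 2 lists were picked as the highest of all genes, so that these values are a description.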

How the data were processed

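Poly(A) RNA of optic nerves from 4 control and 3 mutant P14 mice was sequenced by the authors on an Illumina instrument. The submitters' processing notes name STAR 2.5.1b, RSEM 1.2.22 and edgeR, with GRCm38. The deposited table gives each gene's FPKM and a normalized count (a signal that the authors divided by a factor per sample). Raw counts were recovered from the smallest step of the normalized counts, RSEM writing 2 decimals, and 75.78% to 80.38% of values between 0.5 and 10 reads came out whole within 0.05. The table's columns of the authors' own comparison (log ratio, p-value, false discovery rate and cluster) were not used. The main test was limma-trend (limma 3.58.1) on log2(FPKM + 0.5), with genotype as the only term, for genes with at least 0.5 FPKM in at least 3 samples and Benjamini-Hochberg adjustment over all 13866 of them. A fold change on this scale understates that of low genes. An edgeR test was planned as the main one only if the deposited table held raw counts, which it did not. Count tests were therefore alternatives, run with edgeR 4.0.16 and DESeq2 1.42.0 on recovered reads. That edgeR run called 400 genes.

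The members, the pathway lists and the marker lists were chosen with earlier results of these data known. All members were described, and in each pathway list the genes named by rule were those with the largest and smallest log2 fold changes, while Mmp14, Akt2, Plagl1 and Peg3 were named after their values were seen, for their call with the replicate block. Deviations from the group means correlated over genes at 0.168 to 0.409 between mice of equal label number (3 pairs) and at −0.353 to 0.205 between mice of different number (9 pairs). The pairing comes from these correlations, since no source used here says what a number marks. No 2 libraries of the same group differed by less than sampling noise. The promoter sequences were read from a RefSeq table. The limma-trend, edgeR and DESeq2 tests and the recovery of reads were run on simulated data. Counts there were drawn independently for each sample, without a mouse that stood apart over many genes and without a pair effect. The replicate block and the sample weights were not part of that run. Each sample being 1 mouse, the p-values measure the spread between mice.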

Additional observations from a re-analysis of the deposited data

Results flagged for a closer look

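Of 21 groups of 4 samples (the members and the summed marker lists in the controls), 2 had a sample far from the other 3, where chance marks about 1 in 20 groups. Control 2 held blood cell transcripts at 12730 FPKM, against 2851 to 4318 FPKM in the other controls. Control 3 held the retina markers at 1.335 FPKM in sum, against 1.252 to 1.26 FPKM. No member was among them.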

How the results depend on the processing

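All 10 members had higher means in the mutants under all 18 alternatives (other pseudocounts, filters and scalings, sample weights, the replicate block, count tests on recovered reads, and each mouse left out). Of the 180 values 173 kept their side of the threshold, 7 crossed it to become called, and none reversed. The number of members called, 0 in the main comparison, was 2 with the replicate block, 3 with DESeq2 (on recovered reads) and 0 to 2 when 1 mouse was left out, the 2 arising without mutant 2. Of the other pathway genes, 3 were called with sample weights (Akt2, Foxo1 and Pik3ca), 7 with the replicate block, 1 with edgeR (Foxo1), 8 with DESeq2 and 0 to 4 with 1 mouse left out. Over all genes, 363 calls became 95 with no filter on low values, 1525 with sample weights, 1159 with the replicate block, 1683 with DESeq2 (274 genes had no adjusted p) and 6 to 907 with 1 mouse left out: 60, 15, 6 and 117 without controls 1 to 4, and 186, 907 and 6 without mutants 1 to 3. At an unadjusted p under 0.05 the main comparison had 3387 genes. The cause of these differences was not tested. All 10 differences were smaller without mutant 1, and the 95% intervals of Igf1 and Igf2r included 0 with all mice.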
